A study of Mus musculus with 10 samples.

Results

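The genes described here are the receptors for the Fc part of IgG and the signalling proteins that act next to them. The 10 members are *Fcgr1*, *Fcgr2b*, *Fcgr3*, *Fcgr4*, *Fcer1g*, *Syk*, *Lyn*, *Btk*, *Plcg2* and *Inpp5d*, and each was found by its symbol among the 25232 genes of the deposited table. RNA was sequenced from the spinal cord of 10 female mice at 90 days of age, of the strain labelled C57BL/6 (in the methods, a C57BL/6J background). Of these, 5 were SOD1 G93A mice, which carry a human *SOD1* transgene with the G93A mutation in high copy number and are a model of amyotrophic lateral sclerosis, and 5 were wild type (WT) littermates without the transgene. The methods name the lumbar region of the cord. The value used for each gene is the base mean, the authors' mean over all 10 libraries, 5 of each genotype, of counts that the authors had divided by a size factor for each library. It is 1 value per gene with no spread between mice. The difference between SOD1 G93A and WT mice was not analysed here, and no test between the genotypes is given.

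Fc gamma receptors bind IgG that coats a target and let myeloid cells engulf it or release mediators. The activating receptors do not signal alone: they pair with the gamma chain, whose cytoplasmic tail holds an immunoreceptor tyrosine-based activation motif (ITAM). Src family kinases phosphorylate the ITAM, Syk docks on it, and adaptors, Tec family kinases and phospholipase C gamma carry the signal to calcium. The inhibitory receptor carries an inhibitory motif (ITIM) in its place and recruits a lipid phosphatase that removes the membrane lipid on which Btk and the phospholipases depend. In the central nervous system these genes are known chiefly from microglia and from macrophages of the meninges and vessels.

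Of the receptors, *Fcgr2b* and *Fcgr3* are so alike that part of their message cannot be told apart in short reads. Over the longest coding sequences, *Fcgr2b* and *Fcgr3* were identical at 86.7% of aligned bases (678 of 782), whereas every other pair of the 4 receptors was identical at 64.1% to 68.6%. They held 3 identical runs of at least 50 coding bases, of 129, 113 and 71 bases. The longest run lies in the part that encodes the immunoglobulin-like domains outside the cell. It is printed here because it shows which stretch of the pair a read cannot assign, together with the stretch of *Fcgr4* and of *Fcgr1* that matched it best without gaps. The bases are from the GENCODE M21 transcripts (GRCm38, the same assembly as mm10), 5′ to 3′ on the coding strand, and capitals mark the bases of *Fcgr4* and *Fcgr1* that differ from the run.
Fcgr2b and Fcgr3, identical run: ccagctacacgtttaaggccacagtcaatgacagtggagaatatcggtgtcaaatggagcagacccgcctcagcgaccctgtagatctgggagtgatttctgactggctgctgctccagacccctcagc
Fcgr4, best match: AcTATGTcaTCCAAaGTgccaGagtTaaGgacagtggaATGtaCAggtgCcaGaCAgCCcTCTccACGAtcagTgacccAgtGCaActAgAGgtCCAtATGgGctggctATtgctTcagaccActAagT
Fcgr1, best match: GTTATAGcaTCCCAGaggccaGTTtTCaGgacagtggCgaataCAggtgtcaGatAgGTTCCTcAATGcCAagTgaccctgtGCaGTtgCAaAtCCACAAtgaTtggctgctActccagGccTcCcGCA
In *Fcgr2b* the run covers coding bases 278 to 406, in exons 3 and 4 of 8 (chr1:170967980-170968081 and chr1:170966674-170966700, minus strand). In *Fcgr3* it covers coding bases 263 to 391, in exons 3 and 4 of 5 (chr1:171057691-171057792 and chr1:171054167-171054193, minus strand). The stretch of *Fcgr4* (chr1:171020049-171020150 and chr1:171025544-171025570, plus strand) differed at 55 of the 129 bases, and its longest identical run was 9 bases. That of *Fcgr1* (chr3:96292253-96292354 and chr3:96287206-96287232, minus strand) differed at 58 of the 129 bases, with a longest identical run of 8 bases. All 4 receptors thus shared the exon boundary at the same point of this stretch, and only *Fcgr2b* and *Fcgr3* shared the bases.

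The counting kept uniquely mapped reads, so the share of a gene's exon sequence that is also found elsewhere bears on its value. A window of 100 bases, the read length, was slid along every transcript of each member and looked for on both strands in the transcripts of all other genes. In *Fcgr3*, 44 of 1733 windows (2.54%) were shared, and *Fcgr2b* was the only partner. In *Fcgr2b*, 251 of 5843 windows (4.3%) were shared with 15 genes, and *Fcgr3* took 44 of them. The other *Fcgr2b* partners were led by *Cplx2* (127 windows), which encodes a synaptic regulator and lies on another chromosome. In *Lyn*, 471 of 4065 windows (11.6%) were shared, of which 321 were with the pseudogene *Gm11787* and 150 with the noncoding RNA gene *Gm26857*. No window of 100 bases was shared in *Fcgr1*, *Fcgr4*, *Fcer1g*, *Syk*, *Btk*, *Plcg2* or *Inpp5d*. Introns and the sequence between genes were not searched, so copies there would not be seen. At 50 bases the share rose to 9.58% in *Fcgr3*, 6.95% in *Fcgr2b* and 18.3% in *Lyn*, and to 0.572% in *Inpp5d*. *Gm26857* and *Gm38204* (57 windows of *Fcgr2b*) overlap exons of *Lyn* and *Fcgr2b* on the opposite strand. Windows shared with these 2 genes can be the same place in the genome, to which a read still maps uniquely. *Gm11787* alone took 7.9% of the *Lyn* windows. The reads were also paired, and a mate outside the shared stretch can place a read. These shares thus describe sequence found in transcripts of other genes and not the reads lost.

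**Figure D1:**
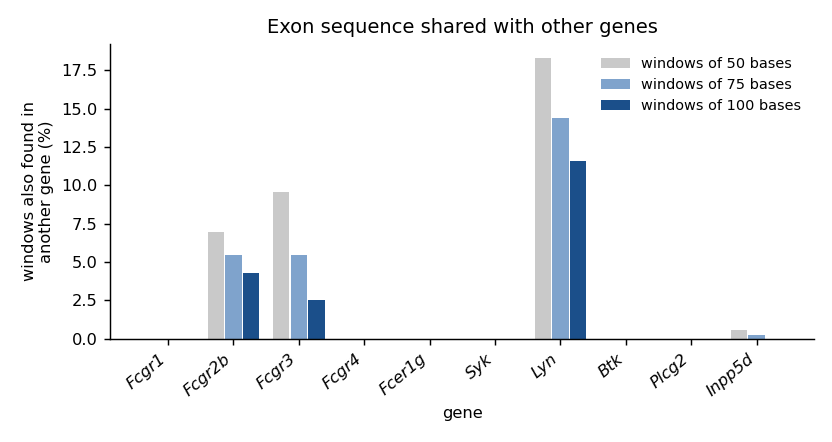
Share of windows (vertical axis, percent) of 50, 75 or 100 bases in the transcripts of each of the 10 genes (horizontal axis) that were also found in a transcript of another gene. *Lyn*, *Fcgr3* and *Fcgr2b* had shared windows at every length, *Inpp5d* only at 50 and 75 bases, and the other 6 genes at none.

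Exons on the opposite strand were found for a pair of members. The antisense gene *Gm38204* overlapped 155 exon bases of *Fcgr2b* (2.68%), and *Gm26857* overlapped 248 exon bases of *Lyn* (6.09%). Neither was listed among the genes counted. The libraries were stranded, but the strand setting of the counting is not given in the sources used here, so reads of these antisense genes cannot be told apart from reads of *Fcgr2b* and *Lyn*. No other gene model shared an exon base with a member.

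*Fcgr2b*, *Fcgr3*, *Fcgr4* and the gamma chain gene stand close together on chromosome 1. *Fcgr2b* (chr1:170958617-170976547, minus strand) was followed after 42.4 kb by *Fcgr4* (chr1:171018920-171029761, plus strand), after a further 21.4 kb by *Fcgr3* (chr1:171051174-171064935, minus strand) and after 165 kb by *Fcer1g* (chr1:171229572-171234365, minus strand). The whole stretch spans 276 kb and holds 7 other protein-coding genes, whose base means ran from 62.25 to 6027. *Inpp5d* is on the same chromosome far from them (chr1:87620312-87720507, plus strand). *Fcgr1*, which encodes the receptor of high affinity, stands alone on chromosome 3 (chr3:96282909-96293969, minus strand).

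The depth of the 10 libraries was recovered from the smallest base means, which are multiples of what 1 count in 1 library adds. Size factors ran from 0.84 to 1.15, a ratio of 1.37, and the estimated library totals from 18600000 to 25500000 counts. Because these steps carry no sample name, no library was assigned to a genotype. The table listed 4259 genes (16.9%) at 0, and the median of the other 20973 genes was 247. The mouse *Sod1* gene had a base mean of 3849 over both genotypes, which does not check the labels, since the transgene is human.

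All 10 members were detected, and they were genes of low to middle abundance. Of the 10, 9 had a base mean of at least 10, against 63.1% of all listed genes, and 6 had at least 100, against 49.8%. Only *Inpp5d* and *Fcgr3* lay above the median of the detected genes. Together the members summed to 1635, which was 0.00738% of the summed base means of all genes. The range between the highest and the lowest member was 40.3-fold.

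**Figure D2:**
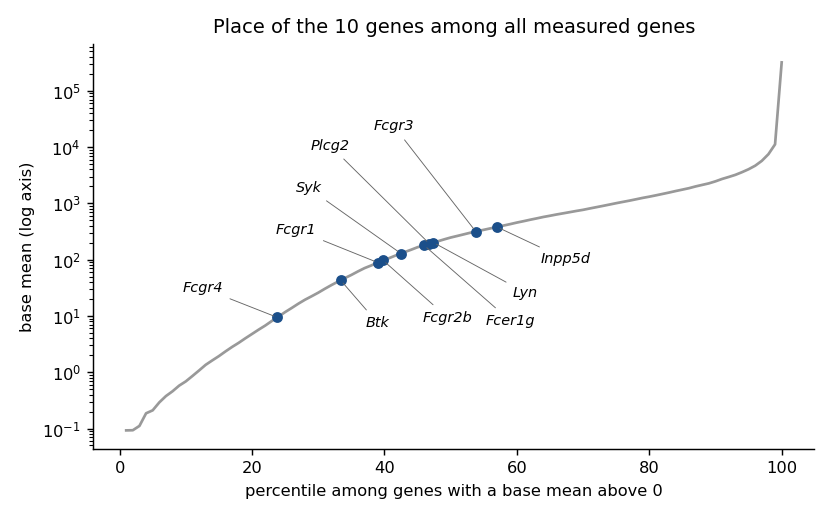
Base mean (vertical axis, log) of all genes with a base mean above 0 against their percentile (horizontal axis), drawn as a grey line, with the 10 genes as blue points. The points run from *Fcgr4* at percentile 23.8 to *Inpp5d* at percentile 57.

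*Fcgr3* encodes an activating receptor of low affinity and was the most abundant of the 4 IgG receptors. Its base mean was 315.6, at percentile 53.8 of the detected genes. From the size factors, between 2651 and 3635 counts stand behind it in the 10 libraries, which gives a counting error of 1.94%. *Fcgr2b*, the inhibitory receptor, had a base mean of 97.2 (percentile 39.8). *Fcgr1*, the receptor of high affinity, had a base mean of 88.75 (percentile 39). These 2 values rest on 816 to 1120 and on 745 to 1022 counts, and their counting errors were 3.5% and 3.66%. *Fcgr4*, an activating receptor that in mice binds chiefly IgG2a and IgG2b, had the lowest base mean of the members, at 9.446 (percentile 23.8). Between 79 and 109 counts over all 10 libraries stand behind it, and its counting error was 11.2%. All these errors and the intervals given with levels cover counting only, and the spread between mice comes on top of them.

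A base mean grows with the length of a gene, so levels were compared between genes as base mean per kilobase of merged exons. On this scale *Fcgr3* stood at 182 (95% counting interval 175 to 189), *Fcgr1* at 34.3 (31.9 to 36.8), *Fcgr2b* at 16.8 (15.7 to 18) and *Fcgr4* at 7.52 (5.95 to 9.37). *Fcgr3* thus made up 75.6% of the summed level of the 4 receptors, *Fcgr1* 14.3%, *Fcgr2b* 6.98% and *Fcgr4* 3.13%. The level of *Fcgr3* was 5.3 times that of *Fcgr1* (4.89 to 5.75), and that of *Fcgr1* was 4.56 times that of *Fcgr4* (3.62 to 5.75). The place of *Fcgr2b* hung on the length used. Only 17.6% of its merged exon length is coding, against 46.1% for *Fcgr3* and 46.8% for *Fcgr1*, and per kilobase of the longest coding sequence *Fcgr2b* (95.3) stood above *Fcgr1* (73.2).

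The activating receptors together stood well above the inhibitory one. The summed level of *Fcgr1*, *Fcgr3* and *Fcgr4* per kilobase was 13.3 times that of *Fcgr2b* (12.3 to 14.4). The ratio was 10.1 with the longest transcript and 5.04 with the longest coding sequence as the length, so its direction held and its size did not.

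*Fcer1g*, the gamma chain with which the activating receptors pair, had the highest level per kilobase of all 10 members. Its base mean was 179.4 (percentile 46), from 1506 to 2066 counts, but its merged exons are only 874 bases long, the shortest of the members. Its level of 205 per kilobase (195 to 216) was at percentile 74 of the genes with a length. It stood 1.13 times above *Fcgr3* (1.06 to 1.2). Against the sum of its 3 partner receptors, *Fcgr1*, *Fcgr3* and *Fcgr4*, its level was 0.918 (0.864 to 0.975), which with the longest coding sequence as the length became 1.35. The gamma chain and the receptors that use it were therefore near each other in level, and which was higher was not settled by these values.

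The kinases lay below *Fcer1g* and *Fcgr3* per kilobase. *Lyn*, a Src family kinase that phosphorylates ITAMs and also ITIMs, had a base mean of 201.5 (percentile 47.4), from 1692 to 2321 counts. *Syk*, the kinase that docks on the phosphorylated ITAM, had a base mean of 128.5 (percentile 42.5), from 1079 to 1480 counts. *Btk*, a Tec family kinase that activates phospholipase C gamma, had the second lowest base mean of the members, at 42.89 (percentile 33.4), from 360 to 494 counts. Per kilobase, *Lyn* stood at 49.5 (47.1 to 51.9), *Syk* at 13.7 (12.9 to 14.6) and *Btk* at 13.6 (12.3 to 15.1). *Lyn* was 3.6 times as high as *Syk* (3.34 to 3.89). *Syk* and *Btk* differed by less than the counting error, with a ratio of *Btk* to *Syk* of 0.992 (0.881 to 1.12). That match also hung on length, since *Syk* has 9362 bases of merged exons, of which 20.2% are coding, and the same ratio was 0.705 with the longest transcript and 0.319 with the longest coding sequence. *Lyn* is on chromosome 4 (chr4:3678115-3813122, plus strand), *Syk* on chromosome 13 (chr13:52583173-52648792, plus strand) and *Btk* on the X chromosome (chrX:134542336-134583570, minus strand).

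The enzymes that make and remove the lipid messengers were among the higher members. *Inpp5d*, which encodes the inositol phosphatase SHIP that *Fcgr2b* recruits, had the highest base mean of the 10, at 380.4 (percentile 57), from 3195 to 4381 counts. *Plcg2*, the phospholipase C gamma of haematopoietic cells (chr8:117498291-117635142, plus strand), had a base mean of 191.6 (percentile 46.8), from 1609 to 2207 counts. Per kilobase, *Inpp5d* stood at 50 (48.3 to 51.8) and *Plcg2* at 44.6 (42.4 to 46.8). *Inpp5d* did not differ from *Lyn* beyond counting error (ratio 1.01, 0.954 to 1.07), but the ratio was 1.32 with the longest transcript and 0.812 with the longest coding sequence. It was 3.64 times as high as *Syk* (3.4 to 3.91), and *Plcg2* was 3.25 times as high as *Syk* (3.01 to 3.51). *Plcg2* is 88.3% coding, and per kilobase of the longest coding sequence it fell below *Syk* (ratio 0.741).

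Set in order per kilobase, *Fcer1g* was followed by *Fcgr3*, *Inpp5d*, *Lyn*, *Plcg2*, *Fcgr1*, *Fcgr2b*, *Syk*, *Btk* and *Fcgr4*. The largest step between neighbours on this scale was that from *Fcgr3* to *Inpp5d*, at 3.63-fold (3.45 to 3.82), so that the gamma chain and its most abundant receptor stood apart from the rest. On this scale only *Inpp5d* and *Lyn*, and *Syk* and *Btk*, had a counting interval of their ratio that included 1. *Btk* was 1.81 times as high as *Fcgr4* (1.42 to 2.31). The order was the same with the longest transcript as the length. With the longest coding sequence, *Fcer1g* and *Fcgr3* stayed first and second, *Btk* and *Fcgr4* stayed last, *Fcgr1* kept its place, and the other 5 changed theirs. The highest level was 27.3 times the lowest, and 15.1 times without *Fcgr4*.

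**Figure D3:**
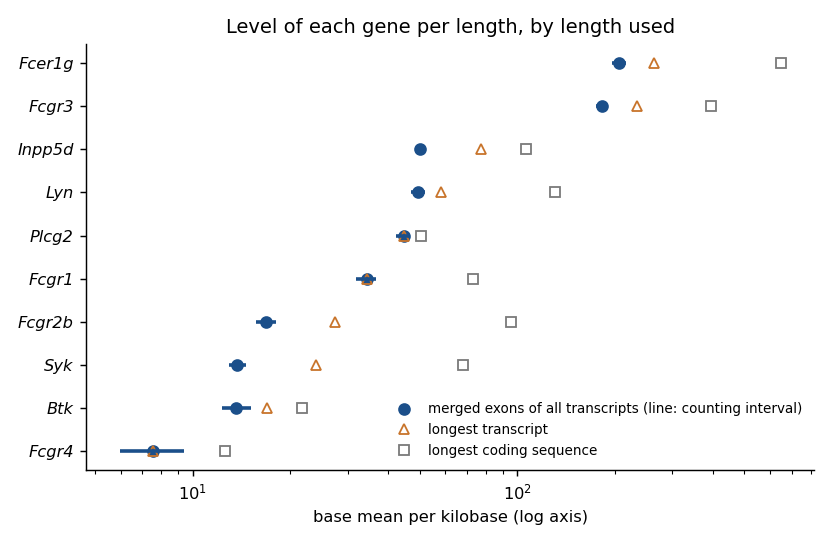
Base mean per kilobase (horizontal axis, log) of the 10 genes with 3 lengths: merged exons of all transcripts (filled circles, with a line for the 95% counting interval), the longest transcript (triangles) and the longest coding sequence (squares). *Fcer1g* and *Fcgr3* were highest and *Fcgr4* lowest with all 3 lengths, whereas *Fcgr2b* and *Syk* moved most.

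Each member was then set beside relatives of the same family, in pairs picked after the levels were seen. The other adaptor with an ITAM in myeloid cells, *Tyrobp* (DAP12), stood at 662 per kilobase, 3.22 times as high as *Fcer1g* (3.04 to 3.42), or 1.61 times with the longest coding sequence as the length. *Fcrls*, an Fc receptor-like gene of microglia, stood at 228 and *Fcgrt*, the neonatal Fc receptor, at 268. *Fcgr3* was lower than *Fcgrt*, at 0.678 of it (0.647 to 0.711). Against *Fcrls* its level hung on length: the ratio was 0.796 (0.759 to 0.835), 0.999 with the longest transcript and 1.13 with the longest coding sequence. *Fyn*, the most abundant Src family kinase measured, was 12.1 times as high as *Lyn* (11.5 to 12.7). *Fgr*, a Src family kinase typical of myeloid cells, stood at 6.94, and *Lyn* was 7.13 times as high (6.21 to 8.2). *Zap70*, the relative of *Syk* known from T cells, stood at 11.3, and *Syk* was 1.22 times as high (1.07 to 1.39), or 3.75 times with the longest coding sequence. *Tec* stood 1.83 times above *Btk* (1.62 to 2.08), and *Bmx* did not differ from *Btk* beyond counting error (ratio of *Btk* to *Bmx* 1.15, 0.985 to 1.34). *Plcg1*, the phospholipase of most tissues, was 5.9 times as high as *Plcg2* (5.61 to 6.21), which became 9.08 with the longest transcript and 10.5 with the longest coding sequence. *Inppl1*, the second SHIP gene, was 3.65 times as high as *Inpp5d* (3.51 to 3.8). In these pairs *Fyn*, *Plcg1* and *Inppl1* were thus higher than *Lyn*, *Plcg2* and *Inpp5d*. For *Lyn* the size of the gap hung on the relative picked. *Yes1*, another Src family kinase, stood at 51.7 per kilobase, against 49.5 for *Lyn*, and no counting interval was computed for that pair.

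Around the members, 87 further genes of the pathway were looked up in 8 lists, and 64 (73.6%) had a base mean of at least 10. Over all listed genes that share was 63.1%, against which the counts of each list are to be read. None was at 0. Few genes of the activating or other Fc receptor lists reached that level, namely 5 of 14 other Fc receptors and 5 of 12 receptors that pair with ITAM adaptors or carry a hemITAM, a motif with a single tyrosine. Of the latter, *Siglech* (83.8 per kilobase) and *Trem2* (66.4) were highest, both known from microglia. On this scale *Fcgr3* was 2.17 times as high as *Siglech* (2.05 to 2.29) and 2.74 times as high as *Trem2* (2.6 to 2.89). By base mean *Trem2* (328.3) stood above *Fcgr3*, and per kilobase of the longest coding sequence the ratio of *Fcgr3* to *Trem2* was 0.896, so the order of this pair was not settled. The receptors of mast cells for IgE were near 0, with a base mean of 0.1044 for *Fcer1a* and 0.1794 for *Ms4a2*, although *Fcer1g* is part of that receptor too. Of the 7 other ITAM adaptors, 3 reached 10, with *Tyrobp* first and *Cd247* second at 39.2 per kilobase.

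Most genes of the lists downstream of the receptors reached that level. Of the 12 other Src, Syk and Tec family kinases 10 reached a base mean of 10, led by *Fyn* (597 per kilobase) and *Src* (334), and the median of the list was 11.6, against 39.4 for the 10 members. All 13 adaptors and exchange factors reached 10, led by *Grb2* (1016) and *Gab2* (236), with a median of 44.5. All 12 lipid enzymes and downstream effectors did so too, led by *Prkcb* (805) and *Pik3r1* (331), with a median of 106. Of the inhibitory side, 7 of 7 phosphatases and adaptors reached 10, led by *Ptpn11* (946) and *Inppl1* (183). Of 10 other ITIM receptors, a list of receptors and not of downstream proteins, 9 reached 10, led by *Sirpa* (872) and *Pilra* (28), and *Sirpa* was 51.9 times as high as *Fcgr2b* (48.4 to 55.6), or 29.2 times with the longest coding sequence. *Sirpa*, *Fyn*, *Grb2* and *Ptpn11* are expressed by neurons as well as by myeloid cells, and these bulk values do not separate the sources.

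**Figure D4:**
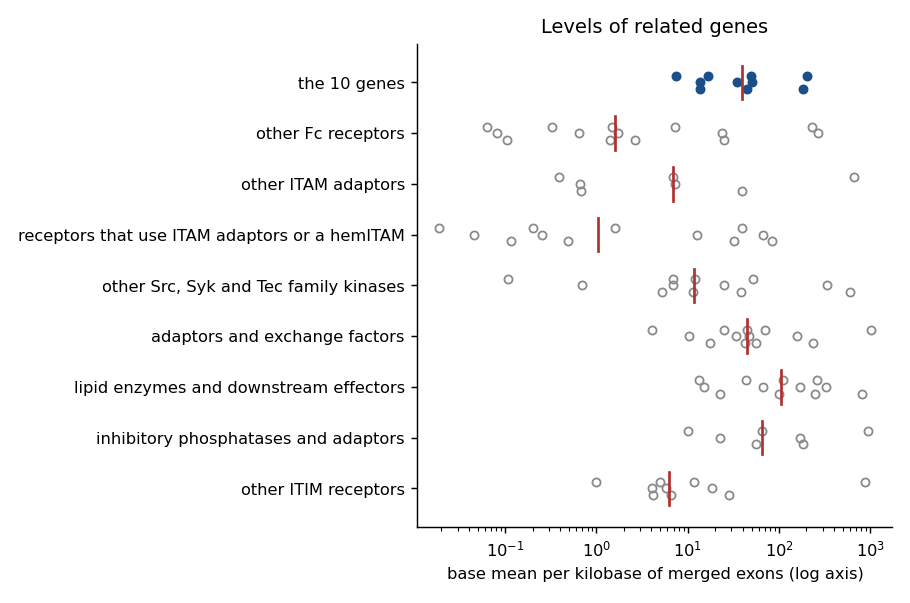
Base mean per kilobase of merged exons (horizontal axis, log) of the 10 genes (filled blue circles) and of 87 related genes in 8 lists (open circles), with a red line at the median of each row. The medians of the receptor lists lie below that of the 10 genes. Those of the adaptors and exchange factors, the lipid enzymes and effectors, and the inhibitory phosphatases and adaptors lie above it.

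Levels were read against markers of the cell types that spinal cord tissue can hold. All 8 microglia markers had a base mean of at least 100, and their median was 241 per kilobase. *Csf1r*, the receptor on which microglia depend for survival, stood at 527, and *Aif1*, the lowest marker, at 72.2. Per kilobase of merged exons, *Fcer1g* and *Fcgr3* lay above *Aif1* and the other 8 members below it, and no member reached the median. The place of *Aif1* hung on the length correction. By base mean *Aif1* stood at 110.6, below *Syk* (128.5), *Fcer1g* (179.4), *Plcg2* (191.6), *Lyn* (201.5), *Fcgr3* (315.6) and *Inpp5d* (380.4). All 5 markers of perivascular macrophages were detected at low levels, *Pf4* (14.7) and *Mrc1* (12.1) being highest, and 7 members lay above both. *Syk* and *Btk* had values above that of *Mrc1*, but no counting interval was computed for these ratios. Neither differed from *Pf4* beyond counting error (ratio to *Pf4* 0.933, 0.752 to 1.16, for *Syk*, and 0.926, 0.734 to 1.17, for *Btk*). That match hung on length. For *Syk* the ratio was 1.33 with the longest transcript and 2.02 with the longest coding sequence, and for *Btk* 0.936 and 0.644. Without a length correction the ratios were 12.1 and 4.04. *Fcgr4* lay below *Pf4* and *Mrc1* per kilobase of merged exons. In bulk tissue, fewer cells of a type and less RNA per cell cannot be told apart, and neither can the sources of a member's RNA.

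Markers of lymphocytes were low, which bears on *Btk*, *Lyn*, *Plcg2*, *Syk*, *Inpp5d* and *Fcgr2b*, all of which B cells also use. The highest B cell markers were *Cd79a* at 7.3 per kilobase and *Cd79b* at 6.93, and the base means of the 5 markers ran from 4.333 to 26.87. The highest T cell markers were *Cd4* (1.38) and *Cd2* (0.806). The highest NK cell markers were *Ncr1* (0.53) and *Klrb1c* (0.473), and the highest mast cell markers *Cpa3* (0.258) and *Mcpt4* (0.19). All 10 members lay above every marker of these 4 cell types, though *Fcgr4* exceeded *Cd79a* by less than the counting error (ratio 1.03, 0.762 to 1.39) and was below it with the longest coding sequence (0.785). Neutrophil markers were uneven, with *S100a9* at 118, *S100a8* at 52.1, *Retnlg* at 11.2 and *Ly6g* at 0.616 per kilobase. Of the members, only *Fcer1g* and *Fcgr3* lay above *S100a9* on this scale. Of red cell and platelet genes, *Itga2b* (14.6) and *Gp9* (10.4) were detected, and the globin genes *Hba-a1* and *Hbb-bs* were listed at 0. Only uniquely mapped reads were counted, and sequence shared by these globin genes with other genes was not searched. Their values of 0 therefore do not show that red cell RNA was absent.

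Markers of neural tissue were abundant. *Mbp* of oligodendrocytes stood at 37739 per kilobase, *Gfap* of astrocytes at 13345 and *Aqp4* at 2577, and *Snap25* of neurons at 8695 and *Tubb3* at 6802. *Cldn5* (501) and *Flt1* (167) led the endothelial markers. *Fcer1g*, the highest member, stood at 205 on this scale.

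**Figure D5:**
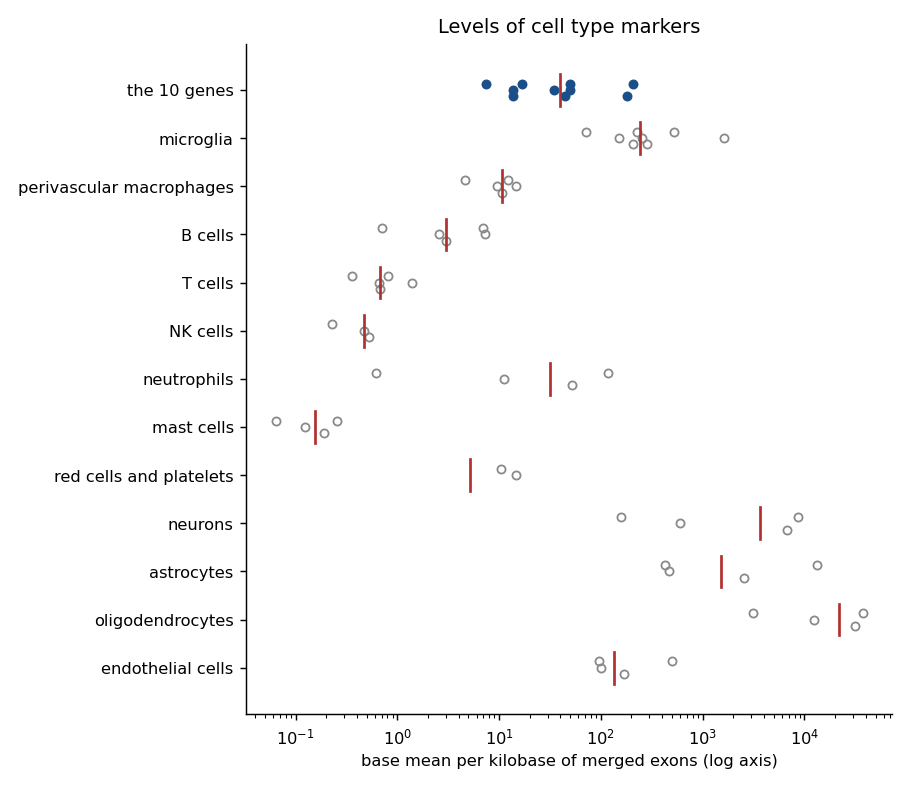
Base mean per kilobase of merged exons (horizontal axis, log) of the 10 genes (filled blue circles) and of 54 cell type markers in 12 lists (open circles), with a red line at the median of each row over all its genes. A pair of globin genes listed at 0 is not drawn. On this scale the 10 genes lie above every B, T, NK and mast cell marker, and 8 of them lie below every microglia marker.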

How the data were processed

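RNA was extracted from the cords of 5 transgenic and 5 WT animals with Qiazol and a lipid tissue kit, made into libraries with TruSeq Stranded mRNA and sequenced as paired-end 100 bp reads. According to the methods and the submitters' processing notes, reads were filtered with Fastp, aligned to mm10 with HISAT2 2.1.0, and uniquely mapped reads were counted with featureCounts 2.0.2 and compared with DESeq2. The gene annotation and the strand setting are not given in the sources used here. The authors deposited 1 table. Its base mean is a signal that the authors computed as the mean of counts divided by size factors over all libraries. Its other 5 columns hold the authors' comparison (log2 fold change, standard error, Wald statistic, p-value and adjusted p-value), and none was used. The order of the rows was not used either.

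Size factors were recovered without sample names: 1 count in 1 library gives the most frequent low values (50 to 103 genes per library), and all 1129 base means under 0.261 were sums of up to 3 such values within 1e-06. The counts behind a gene lie between the base mean times 10 libraries times the lowest size factor and the same with the highest. Counting intervals (95%) rest on the lower bound; they are exact Poisson intervals for a level and log-normal ones for a ratio. They leave out the spread between mice. Lengths came from GENCODE M21 (GRCm38), and 24310 symbols (96.3%) matched. A percentile is the share of genes with a base mean above 0 that lie lower. Depth was 18600000 to 25500000 counts per library. The members and the lists were chosen with earlier results of these data known. All 10 members were described, and of each list the highest and second highest genes per kilobase and any gene at 0; other genes were chosen after their values were seen. Some genes of these lists are not reported here by name. Alternatives were other lengths, other sets of ranked genes, other limits for a measured gene and other windows. The scripts (Python 3.11.15, numpy 2.4.6, pandas 2.3.3, scipy 1.17.1, matplotlib 3.10.9, Biopython 1.88) were tested on simulated data. Protein sequences were not used here.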

Additional observations from a re-analysis of the deposited data

How the results depend on the processing

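The ratios between members depended on the length used for a gene. With the longest coding sequence as the length, 2 ratios turned: *Fcer1g* over the activating receptors became 1.35 and *Plcg2* over *Syk* 0.741. With that length the activating receptors over *Fcgr2b* were 5.04, *Lyn* over *Syk* 1.93, *Btk* over *Syk* 0.319 and *Inpp5d* over *Syk* 1.56. With the longest transcript, these were 10.1, 2.43, 0.705 and 3.22, and *Plcg2* over *Syk* was 1.86. Without a length correction, *Fcer1g* over the activating receptors was 0.434, the activating receptors over *Fcgr2b* 4.26, *Lyn* over *Syk* 1.57, *Btk* over *Syk* 0.334, *Plcg2* over *Syk* 1.49 and *Inpp5d* over *Syk* 2.96. Ratios of a member to another gene, with lengths added after seeing the data, also turned: with the longest coding sequence *Fcgr3* over *Fcrls* was 1.13 and over *Trem2* 0.896. Without a length correction *Fcgr3* over *Trem2* was 0.961, *Fcer1g* over *Siglech* 0.633, over *Trem2* 0.546 and over *Fcgr3* 0.568, and *Fcgr3* over *Inpp5d* 0.83. Exons reduced by their shared windows, an alternative chosen after seeing the data, gave *Lyn* over *Syk* as 4.08 and moved 1 of 10 levels. The windows taken out of *Lyn* include those shared with *Gm26857*, which overlaps it, so that reduction can be too large. The longest transcript moved 7 of 10 levels, by at most 1.75-fold, and the longest coding sequence all 10, by 1.13-fold to 5.68-fold. Percentiles rose by 7.3 to 12.9 points when genes at 0 were ranked too, and changed by -21.2 to -13.6 points for 9 members when only genes at 10 or more were ranked. Ranking per kilobase changed them by -11.6 to 28 points. With a base mean of at least 100 as the limit, 39 of the 87 pathway genes were measured, against 49.8% of all listed genes. The pathway share was thus above that of all genes at a limit of 10 and below it at 100.

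The search for ITAMs in proteins, with its second spacing, was not run. No paired analysis was possible because each value is 1 mean over all libraries, and for the same reason no replicate was left out. Depth limits *Fcgr4* most, and the annotation behind the counts is not known.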
